A study of Mus musculus with 4 samples.

Results

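The miR-10 and miR-196 families are microRNAs (miRNAs) whose genes lie inside the Hox clusters, the runs of homeobox genes that pattern the body axis from head to tail. A miRNA guides silencing proteins to messenger RNAs that pair with its seed, the stretch from base 2 to base 8. Several Hox messenger RNAs are known targets of both families, and the miRNAs are transcribed together with the part of the cluster around them. Both families are typical of the trunk and posterior tissues of the body. Members were all entries of the mature miRNA table whose hairpin name is miR-10a, miR-10b, miR-196a or miR-196b, whichever arm. The table held 5 such entries among 389 mature miRNAs, namely mmu-miR-10a-5p, mmu-miR-10a-3p, mmu-miR-10b-5p, mmu-miR-196a-5p and mmu-miR-196b-5p.

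Small RNA was sequenced from exosome-enriched preparations, that is vesicles pelleted from the culture supernatant of C8-D1A, an established mouse astrocyte line from cerebellum. The control group (n = 2 libraries) was held at 37 °C, for 8 h by the sample labels and for 2 h by the study's culture methods. The heat stress group (n = 2 libraries) spent 2 h at 42 °C, followed by 6 h of rewarming at 37 °C. The labels call the libraries of a group biological replicates. The cells grew in medium with fetal bovine serum, and the sources used here do not say whether that serum had been freed of its own vesicles.

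Each value was a normalized read count, the reads of a miRNA divided by a size factor of its library. The libraries held 43675 and 95020 miRNA reads in the control group and 100933 and 63338 in the heat stress group. One read was therefore worth 1.35 and 0.782 normalized units in the control libraries, and 0.790 and 1.00 in the heat stress libraries. Of the 5 members, 4 were above 0 in every library. All 5 had a mean value of at least 1, the filter on low values, and 4 had at least 10 reads in every library. The exception, mmu-miR-10a-3p, was counted as 3 and 0 reads in the control libraries and as 1 and 0 in the heat stress libraries, too few for its fitted change to be read as one.

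The mature sequences are shown because each family consists of near-identical copies that only 1 base tells apart. RefSeq (GRCm38.p6) gave a sequence for 5 of 5 members and for 325 of the 389 entries. Capitals mark the seed.
mmu-miR-10a-5p: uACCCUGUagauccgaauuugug
mmu-miR-10b-5p: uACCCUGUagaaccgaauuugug
mmu-miR-196a-5p: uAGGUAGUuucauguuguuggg
mmu-miR-196b-5p: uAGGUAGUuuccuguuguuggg
The miR-10 pair differed by U12A (miR-10a base first) and the miR-196 pair by A12C (miR-196a base first), with positions counted from 1 at the 5′ end. Both substitutions lie outside the seed. Among the entries with a sequence, each of these seeds was held by its 2 family members and no other. The sources used here do not state how many mismatches were allowed when reads were counted, so reads could have been exchanged within a pair. A further entry pair, mmu-miR-486a-5p and mmu-miR-486b-5p, had equal values in all 4 libraries, so a read that matches several entries appears to have been counted at each.

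The opposite arm of miR-10a has a seed of its own.
mmu-miR-10a-3p: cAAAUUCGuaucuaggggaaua
Averaged over the 4 libraries, 99.95% of the miR-10a hairpin's summed value came from the 5p arm, and the 3p arm rested on 4 reads in all. The entry miR-196a-5p is encoded by a pair of loci with the same mature sequence, and its reads cannot be assigned to either.

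In GRCm38, Mir10a lay at chr11:96317165-96317274 on the plus strand, between Hoxb5 and Hoxb4 and 992 bp before Hoxb4. Mir10b lay at chr2:74726070-74726137 on the plus strand, in an intron of annotated transcripts of Hoxd3 and Hoxd4. Mir196b lay at chr6:52230081-52230165 on the minus strand, overlapping an exon of the Hoxa9 gene model. Each of these hairpins is on the same strand as the Hox genes it neighbours or overlaps. The loci of miR-196a were Mir196a-1 at chr11:96265164-96265265, between Hoxb13 and Hoxb9 in the same cluster as Mir10a, and Mir196a-2 at chr15:102973350-102973434, inside an intron of a long Hoxc5 gene model. A further Hox-cluster miRNA with values, Mir615, lay at chr15:103014910-103015001 in an intron of the same Hoxc5 model.

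**Figure D1:**
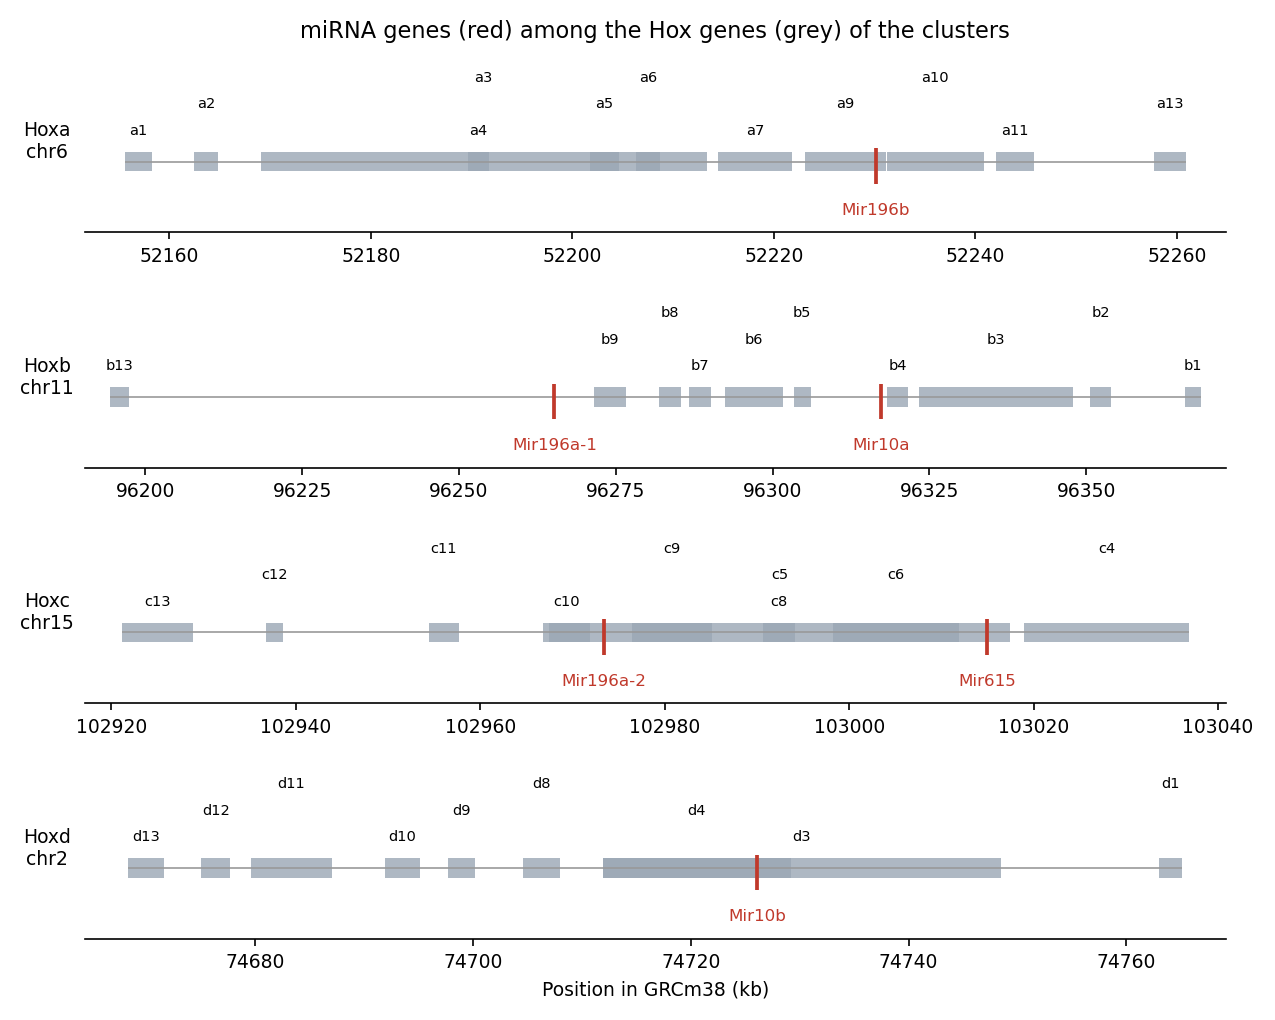
Map of the Hox clusters in mouse (GRCm38), with 1 panel per cluster and position in kb on the horizontal axis. Grey bars are Hox gene models, labelled by cluster letter and number, and red lines are the miRNA genes with values; Mir10a and Mir196a-1 share the Hoxb cluster.

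The miR-10 pair was among the most abundant miRNAs of the preparations and the miR-196 pair was far lower. Ordered by mean over the 4 libraries, mmu-miR-10b-5p stood at place 3 of 389 with a mean of 3350, and mmu-miR-10a-5p at place 5 with 2514. Between them stood mmu-miR-365-2-5p, whose mean was 2805 and whose libraries stood at 4120 and 3481 in the controls and at 2758 and 860 after heat stress. The order followed the groups, since miR-365-2-5p was above both miR-10 members in both controls and below both in both heat stress libraries. Within single libraries miR-10b held place 4 in both controls and place 3 in both heat stress libraries. There miR-10a held place 6 in both controls and places 4 and 5 after heat stress. The change of miR-365-2-5p was not past the threshold (log2 change -1.30, SE 0.99, limma adjusted p = 0.686). The next entry above, mmu-let-7c-5p, was higher than miR-10b in all 4 libraries, and the next below miR-10a, mmu-miR-125b-5p, was lower than miR-10a in 3 of 4. The entry mmu-miR-196a-5p stood at place 50 with a mean of 170, between mmu-miR-139-3p and mmu-miR-378c. In single libraries miR-196a held places 55 and 44 in the controls and places 39 and 60 after heat stress. It was higher than mmu-miR-139-3p in 3 of 4 libraries and higher than mmu-miR-378c in 2 of 4. The entry mmu-miR-196b-5p stood at place 74 with a mean of 57.8, between mmu-miR-23a-3p and mmu-miR-214-3p. That place is that of the pooled mean and of neither group, since in single libraries it held places 118 and 97 in the controls and places 59 and 76 after heat stress. It was below mmu-miR-214-3p in both controls, where that miRNA stood at 77.2 and 70.4, and above it in both heat stress libraries, at 44.3 and 39.04. Levels are normalized counts of molecules of nearly equal length, and cloning efficiency that differs between sequences was not measured.

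Whether heat stress changed the miRNA load of the preparations was the question behind the sequencing. Changes were tested with limma after a log2(value + 1) step. The 313 miRNAs whose mean reached 1 were tested, and the threshold asked for a change above 2-fold together with an unadjusted p below 0.05. By this rule 14 miRNAs were higher after heat stress (4.47% of those tested) and 9 were lower (2.88%). Of the 5 members, 0 were higher and 0 were lower. By limma, 0 of the 313 miRNAs had an adjusted p below 0.05 (the lowest was 0.513) and 23 had an unadjusted p below 0.05. On the recovered reads, edgeR gave 1 miRNA with an adjusted p below 0.05 and 14 with an unadjusted p below 0.05, and DESeq2 gave 0 and 14. The edgeR call was mmu-miR-139-3p, which lies outside the Hox clusters (log2 change -2.67, edgeR adjusted p = 0.0265). It stood at 477 and 138.5 in the controls and at 41.1 and 49.0 after heat stress. It was next to miR-196a only in the mean over the 4 libraries.

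For miR-10b-5p the control libraries stood at 2917 and 2730 and the heat stress libraries at 4413 and 3340. Both heat stress libraries were above both controls, the first clearly and the second by less than the gap between the heat stress libraries. The log2 change was 0.44 (SE 0.84), a ratio of means of 1.37, with a limma adjusted p of 0.960. It was 0.24 without heat stress replicate 1 and 0.64 without heat stress replicate 2. For miR-10a-5p the control libraries stood at 2193 and 2163 and the heat stress libraries at 3051 and 2649. Again the groups did not overlap, and heat stress replicate 1 was the highest library of both miRNAs. The log2 change was 0.38 (SE 0.83), a ratio of means of 1.31, with a limma adjusted p of 0.960. The limma fit shares one prior for the error between abundant and low miRNAs. With a prior that follows the mean the standard errors were 0.43 for miR-10b and 0.44 for miR-10a, and neither passed the threshold.

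For miR-196b-5p, whose hairpin overlaps an exon of the Hoxa9 gene model, the control libraries stood at 21.7 and 28.9 and the heat stress libraries at 121.7 and 59.1. These came from 16 and 37 reads in the controls and from 154 and 59 reads after heat stress. The groups did not overlap, and heat stress replicate 1 was about as far above heat stress replicate 2 as that was above the higher control, on a log scale. The ratio of means was 3.57, and the log2 change was 1.72 (SE 0.90), with a limma adjusted p of 0.686. The change did not pass the threshold, since the unadjusted limma p was above 0.05. It passed in 4 of the 15 other settings, namely with at least 10 reads in every library, with the prior that follows the mean, with edgeR (log2 change 1.87, added after seeing the data) and without heat stress replicate 2 (log2 change 2.24). It did not pass in the other 11, DESeq2 among them (log2 change 1.83). Over the settings the adjusted p from limma, edgeR or DESeq2 ran from 0.240 to 0.920. A pass as higher was reached by 2 of 104 (1.92%) under the filter of 10 reads, by 6 of 313 (1.92%) with the prior that follows the mean and by 7 of 313 (2.24%) with edgeR. Without heat stress replicate 2 it was far more common, at 37 of 313 (11.8%).

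For miR-196a-5p, which shares the seed of miR-196b, the control libraries stood at 119 and 192 and the heat stress libraries at 252 and 118. The groups overlapped, since the highest and the lowest library were both heat stress libraries. The log2 change was 0.19 (SE 0.92), with a limma adjusted p of 0.983. It turned to -0.15 without control replicate 1 and to -0.35 without heat stress replicate 1. The normalized values of mmu-miR-10a-3p were 4.06 and 0 in the controls and 0.790 and 0 after heat stress, all within the 3 reads that a count of 0 allows.

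In 3 of the 5 members both heat stress libraries were above both controls, against 50 of the 313 miRNAs tested (16.0%), and in 0 of the 5 both were below, against 36 of 313 (11.5%). The median log2 change was 0.38 over the 5 members and 0.41 over the 4 without mmu-miR-10a-3p, beside 0.12 over all 313. Scaling the libraries to equal totals moved the median of all miRNAs from 0.12 to 0.02. The changes of miR-10b, miR-10a and miR-196b were then 0.34, 0.28 and 1.62.

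**Figure D2:**
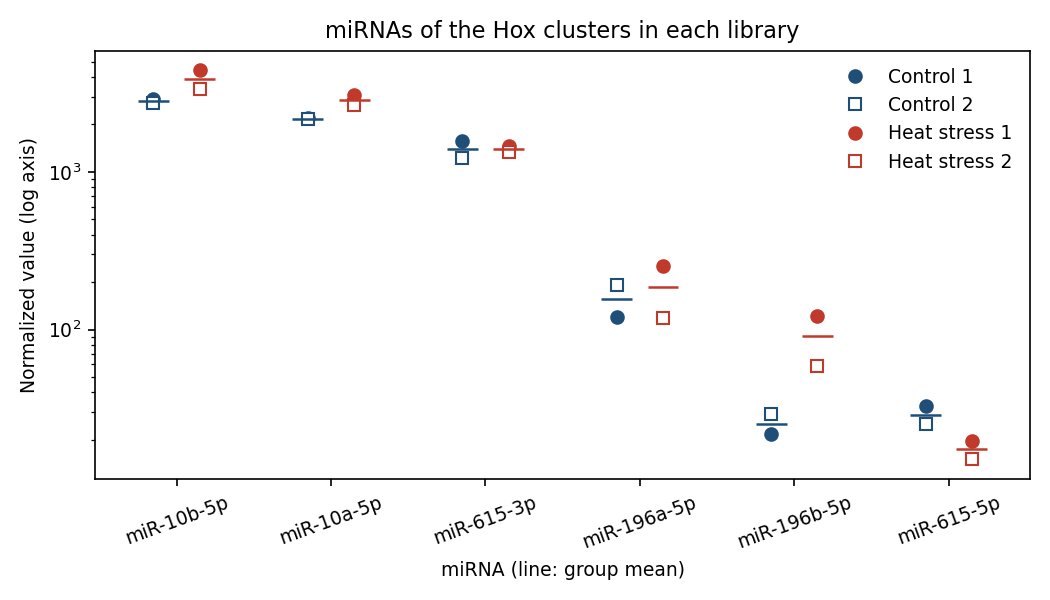
Normalized value (log axis) of the Hox-cluster miRNAs in each of the 4 libraries, with control in blue, heat stress in red and group means as lines. The points of miR-196b-5p stand at 21.7 and 28.9 in the controls and at 121.7 and 59.1 after heat stress, and those of miR-196a-5p overlap.

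**Figure D3:**
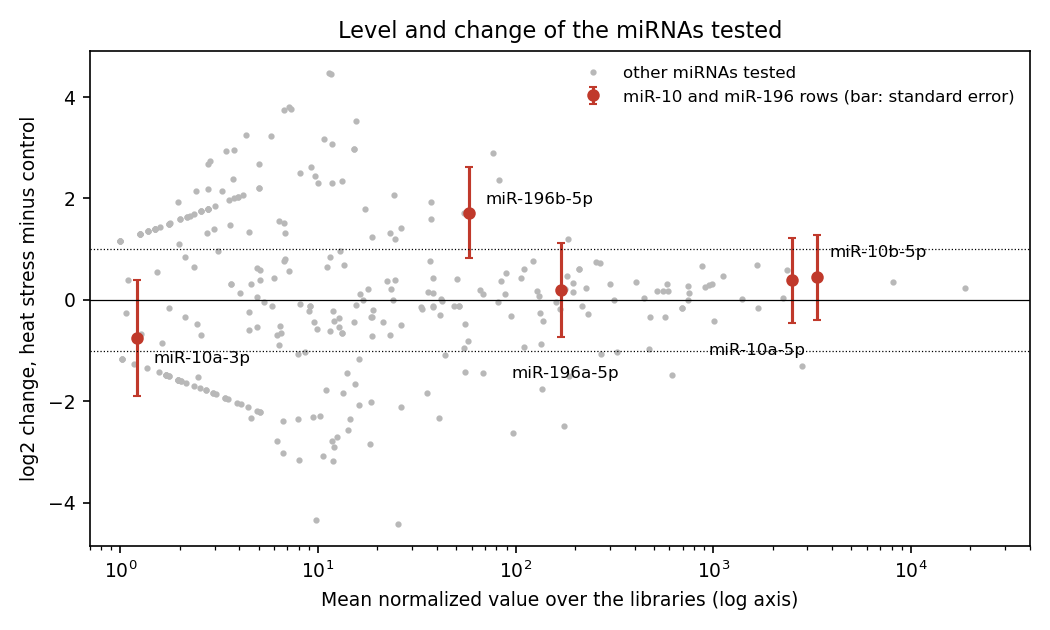
Log2 change (heat stress minus control, limma) against mean normalized value (log axis) for the 313 miRNAs tested, with the 5 members in red and their standard errors as bars. Dotted lines mark a 2-fold change; miR-196b-5p lies at 1.72 with a standard error of 0.90.

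Plain ratios between members within a library do not depend on how the library was scaled. The log2 ratios were taken after 1 was added to each value, so for low values they do depend on the scaling. With 2 libraries against 2 the exact two-sided permutation test cannot give a p below 0.33. The ratio of miR-10b-5p to miR-10a-5p was 1.33 and 1.26 in the controls and 1.45 and 1.26 after heat stress. So miR-10b exceeded miR-10a in all 4 libraries, the groups overlapped, and the log2 ratio differed by 0.06 between groups (exact permutation p = 1.00, n = 2 per group). The difference changed sign, to -0.04, without heat stress replicate 1.

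Within the miR-196 pair, miR-196b-5p made up 15.4% and 13.1% of the summed value in the controls and 32.6% and 33.3% after heat stress. The groups lay apart and the libraries of a group lay close together, although the level of each miRNA varied between the heat stress libraries. As a log2 ratio of miR-196b to miR-196a, a ratio chosen after the values were seen, the means were -2.55 ± 0.20 (SD, n = 2) in control and -1.02 ± 0.04 (SD, n = 2) after heat stress. The difference was 1.53, with an exact permutation p of 0.33, the smallest possible. The ratio of miR-196b-5p to miR-10a-5p was 0.00988 and 0.0134 in the controls and 0.0399 and 0.0223 after heat stress, and its log2 difference of 1.34 also had an exact permutation p of 0.33. The corresponding log2 difference against miR-10b-5p was 1.28, with the same exact permutation p of 0.33 and groups that did not overlap. These ratios all have miR-196b-5p as numerator, so they are not separate observations.

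As a share of all miRNA reads, miR-10b-5p held 4.93% (Wilson 95% interval 4.73% to 5.14%) and 3.67% (3.56% to 3.79%) in the controls, and 5.53% (5.39% to 5.68%) and 5.27% (5.10% to 5.45%) after heat stress. The intervals cover counting error only, since reads without molecular identifiers are not independent molecules. The intervals of control replicate 1 and heat stress replicate 2 overlapped, and those of the controls did not overlap each other. The share of miR-10a-5p was 3.71% (3.53% to 3.89%) and 2.91% (2.80% to 3.02%) in the controls and 3.83% (3.71% to 3.95%) and 4.18% (4.03% to 4.34%) after heat stress. Here the intervals of control replicate 1 and heat stress replicate 1 overlapped. The share of miR-196b-5p was 0.0366% (0.0226% to 0.0595%) and 0.0389% (0.0283% to 0.0537%) in the controls, and 0.153% (0.130% to 0.179%) and 0.0932% (0.0722% to 0.120%) after heat stress. Here the intervals of both heat stress libraries lay above those of both controls. The difference between groups was 0.0851 percentage points, and 0.0554 without heat stress replicate 1. The share of miR-196a-5p was 0.201% and 0.258% in the controls and 0.316% and 0.186% after heat stress. That share overlapped between groups. All 5 members together took 8.88% and 6.88% of the reads in the controls and 9.83% and 9.73% after heat stress, a difference of 1.90 percentage points (exact permutation p = 0.33, n = 2 per group). That difference was 0.896 without control replicate 2 and 2.90 without control replicate 1. For miR-10b-5p the difference in share was 1.10 percentage points, 0.471 without control replicate 2 and 1.73 without control replicate 1. For miR-10a-5p it was 0.694, and 0.295 and 1.09 without these libraries in turn. The most abundant miRNA of every library, mmu-miR-148a-3p, took 20.2% and 31.2% in the controls and 29.9% and 25.2% after heat stress, so that a share of any other miRNA moves with it.

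Of the 7 table entries from Hox-cluster miRNAs, the members included, 0 were past the threshold in either direction, where 4.47% of all miRNAs tested passed as higher and 2.88% as lower, so a list this short carries little information on calls. Both heat stress libraries were above both controls for 3 of the 7, against 50 of the 313 tested (16.0%). Both were below for 1, against 36 of 313 (11.5%). The median log2 change was 0.19, beside 0.12 over all miRNAs tested. The entries outside both families were the arms of miR-615, encoded in an intron of the Hoxc5 model. The 3p arm stood at 1565 and 1220 in the controls and at 1464 and 1335 after heat stress. It overlapped between groups. The 5p arm stood at 32.5 and 25.03 in the controls and at 19.8 and 15.01 after heat stress, so both heat stress libraries were below both controls, with a log2 change of -0.70 (SE 0.85) and a limma adjusted p of 0.808.

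The 5′ ends of other listed miRNAs resemble those of the members. The miR-99 and miR-100 sequences are shown because they share a run with miR-10 that starts 1 base earlier and reaches past the seed. Capitals mark the run shared with the miR-10 member named beside each.
mmu-miR-100-5p with miR-10a-5p: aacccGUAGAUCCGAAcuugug
mmu-miR-99b-5p with miR-10b-5p: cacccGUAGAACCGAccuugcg
The runs are 11 and 10 bases long. Of the 5 entries for miR-99a, miR-99b, miR-100, miR-125a and miR-125b, 0 passed the threshold in either direction and 4 lay above both controls in both heat stress libraries, where 50 of the 313 tested (16.0%) did. Their median log2 change was 0.31, beside 0.12 over all miRNAs tested. The highest of them, miR-125b-5p, stood at 2134 and 1612 in the controls and at 2402 and 3254 after heat stress. The seed run of miR-196 recurs from base 3 of most let-7 sequences, as in mmu-let-7c-5p.
mmu-let-7c-5p: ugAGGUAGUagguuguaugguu
Of the 11 entries for let-7 and miR-98, 0 passed in either direction, with the same 4.47% and 2.88% over all miRNAs, and 3 lay above both controls in both heat stress libraries. Their log2 changes ran from -0.42 to 1.42 with a median of 0.31. Among them mmu-let-7c-5p alone was more abundant than miR-10b, and its libraries ran from 4105 to 11547.

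Patterns over the 4 libraries were compared by the root-mean-square difference of centred log2 profiles among 158 other miRNAs with a mean of at least 10. The nearest to miR-10b-5p was mmu-miR-26a-5p, at 0.02, where the median of all 158 was 0.67. Its libraries stood at 959 and 909 in the controls and at 1505 and 1105 after heat stress. Next came mmu-miR-674-3p, at 0.03, and mmu-miR-125b-1-3p, at 0.07. The same pair of miRNAs led the list for miR-10a-5p together with miR-10b-5p itself, at 0.08. For miR-196a-5p the nearest were mmu-miR-148a-3p, mmu-let-7d-3p and mmu-miR-27b-3p, at 0.21 to 0.22. For miR-196b-5p they were mmu-miR-98-5p at 0.44, mmu-miR-92a-3p at 0.52 and mmu-miR-8112 at 0.58, against a median of 1.15, so its closest neighbours lay farther off than those of the other 5p members. These profiles rest on 4 libraries.

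Markers of cell types were read in the same libraries. Of the 4 astrocyte or glial markers all had an entry. Their summed values were 2310 and 1640 in the controls and 2579 and 3342 after heat stress. Nearly all of each sum was miR-125b-5p, at 2134 and 1612 in the controls and at 2402 and 3254 after heat stress. The other markers of this list overlapped between groups. For miR-181a-5p the values were 5.42 and 3.13 against 14.2 and 4.00, and for miR-29a-3p 48.8 and 24.3 against 25.3 and 36.0. The entry mmu-miR-9-5p stood at 121.9 and 0 in the controls and at 137.5 and 48.0 after heat stress, so a marker of this list was at 0 in control replicate 2. The 3 neuronal markers summed to 549 and 540 in the controls and to 465 and 385 after heat stress, so both heat stress libraries were below both controls. Most of each sum was miR-128-3p, at 531 and 540 in the controls and at 465 and 382 after heat stress. The defining neuronal marker miR-124-3p stood at 4.06 and 0 in the controls and at 0 and 3.00 after heat stress, and miR-138-5p at 13.5 in control replicate 1 and at 0 in the other 3 libraries. The 3 muscle markers, of which miR-133a-3p had no entry, summed to 39.3 and 108 in the controls and to 22.1 and 27.0 after heat stress. Within this list mmu-miR-1a-3p stood at 24.4 and 73.5 in the controls and at 3.16 and 0 after heat stress, whereas mmu-miR-206-3p overlapped between groups, at 14.9 and 34.4 against 19.0 and 27.0. The 5 blood-cell markers summed to 1884 and 1130 in the controls and to 1570 and 1100 after heat stress, with miR-486a-5p and miR-486b-5p equal and the most abundant, and miR-144-3p and miR-223-3p at 0 in 3 of 4 libraries. With the equal miR-486 entries counted once, these sums were 951 and 577 in the controls and 793 and 569 after heat stress. The liver miRNA miR-122-5p stood at 90.8 and 33.6 in the controls and at 20.5 and 76.1 after heat stress. The part of these marker levels in the values of the miR-10 and miR-196 families was not tested.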

How the data were processed

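Small RNA from exosome-enriched preparations of C8-D1A cells was sequenced by the authors in 4 libraries, 2 per group. They trimmed adapters, dropped reads of low quality or under 17 nt, and aligned the rest to the genome with Bowtie. The submitters' processing notes also name FastQC and BWA. Genome build, miRNA release and versions are not given in the sources used here. The deposited values are a signal, read counts divided by 1 size factor per library, for 389 mature miRNAs. Columns with the authors' own fold changes and p-values were not used.

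The members and lists were chosen with earlier results of these data known. All values were whole multiples (tolerance 0.01) of 1 step per library, in 100% of values of each of the 4 libraries. The inverse steps (0.738, 1.28, 1.27 and 0.999) equalled the median-of-ratios size factors of the multiples. From the low values alone the step was decided in 2 libraries, so for the other 2 the recovered reads rest on this equality. Reads were 43675 to 100933 per library.

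limma 3.58.1 in R 4.3.3 was fitted to log2(value + 1) of the 313 miRNAs whose mean reached 1. Condition was its single term, and p-values were adjusted by Benjamini and Hochberg. A fold change on this scale understates the change of low miRNAs. The threshold, from the study's methods, was a change above 2-fold together with an unadjusted p below 0.05. After the data were seen, edgeR 4.0.16 (quasi-likelihood) and DESeq2 1.42.0 on the recovered reads and the ratio of miR-196b to miR-196a were added. The limma and edgeR fits were tested on simulated data. Its first settings did not meet the pass mark, and both the settings and the mark were then changed until they did. Ratios and shares were compared with exact two-sided permutation tests (scipy 1.17.1), and shares were given Wilson 95% intervals. Named miRNAs were the members, the Hox-cluster entries, the 3 most similar patterns and the neighbours in mean order of each member, and the lists. Alternatives were other pseudocounts, filters, scalings, variance prior, replicate block and leaving out each library.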

Additional observations from a re-analysis of the deposited data

How the results depend on the processing

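The log2 changes of miR-10b-5p and miR-10a-5p kept their direction and stayed short of the threshold in all 15 alternatives each. With 1 library left out, they ran from 0.24 to 0.64 for miR-10b-5p and from 0.28 to 0.49 for miR-10a-5p. The lowest values were without heat stress replicate 1 and the highest without heat stress replicate 2. Control depth for miR-196b-5p was 16 and 37 reads. Its log2 change kept its direction in all 15 and passed the threshold in 4. The change was 1.72 both with at least 10 steps in every library (fewer miRNAs tested) and with a variance prior fitted to the mean level, and 1.87 with edgeR, which was chosen after seeing the data. Leaving out 1 library in turn gave 1.205 to 2.24, the highest without heat stress replicate 2, where it also passed. In these fits a lone library is assumed to vary like the other group. With 1 library left out, the log2 change of miR-196a-5p ran from -0.35 to 0.73 and was -0.15 without control replicate 1, and that of miR-10a-3p ran from -1.92 to 0.42 (without control replicate 1). Over the other alternatives miR-10a-3p, with 4 reads in all, ran from -2.22 to -0.32. The filters at a mean of 10 and at 10 steps left no value for miR-10a-3p. The cause of these reversals was not tested.

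Against 14 higher and 9 lower, the counts past the threshold were 6 higher and 8 lower with a mean of at least 10, 2 higher and 5 lower with at least 10 steps in every library, 6 higher and 10 lower with that variance prior, 14 higher and 2 lower with a pseudocount of 0.1, 11 higher and 13 lower with a pseudocount of 5, and 7 higher and 7 lower with edgeR as with DESeq2, both chosen after seeing the data. Leaving out 1 library gave 10 to 39 higher and 3 to 27 lower, and 35 miRNAs had a limma adjusted p below 0.05 without heat stress replicate 1 and 35 without replicate 2. Of these, 35 and 34 were at 0 in both controls, where the error left is 0 before moderation. With the replicate block 10 were higher, 4 lower and no member passed. Deviations of same-numbered libraries (r = -0.02, a single value) cannot exclude a shared batch.

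The difference in the log2 ratio of miR-10b to miR-10a ran from -0.0394 to 0.159 when 1 library was left out. That of miR-196b ran from 0.922 to 1.75 against miR-10a, 0.961 to 1.59 against miR-10b and 1.39 to 1.67 against miR-196a. Dropping the 5 most abundant other miRNAs from the denominator raises shares. The difference in share was then 2.44 percentage points for miR-10b-5p, 1.498 for miR-10a-5p, 0.175 for miR-196b-5p and 4.16 for all members. Leaving out 1 library, it ran from 0.896 to 2.90 for all members, 0.0554 to 0.115 for miR-196b-5p, -0.0434 to 0.0864 for miR-196a-5p (-0.00666 without control replicate 1) and -0.00637 to 0.000495 for miR-10a-3p. Of the 3 patterns most similar to miR-196b-5p, 1 was shared under the filter of 10 steps, where mmu-miR-98-5p and mmu-miR-8112 were no longer candidates, and for the other 5p members all 3 were.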
